A study of Sus scrofa with 41 samples.

Results

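The RAB, TRAPP and VPS genes encode much of the machinery that moves membrane between compartments of the cell. They were followed here in psoas major, a postural loin muscle, of slaughter-weight pigs. Members were taken by name alone, as every gene whose pig Ensembl symbol starts with RAB, TRAPPC or VPS followed by a digit, and the rule itself uses no measured value. Of 116 such symbols, 110 had a row of counts among the 25880 genes of the deposited tables, made up of 60 RAB, 15 TRAPPC and 35 VPS genes. RAB1B, RAB21, RAB32, RAB36, RAB40B and RAB5B had none and were not analysed here.

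RAB proteins are small GTPases that act as switches. In the GTP-bound form each one sits on a particular membrane, such as the Golgi, the early endosome or the lysosome, and recruits motors, tethers and fusion factors there. The TRAPP complexes share a core of small subunits, exist in the forms TRAPPII and TRAPPIII, and switch on RABs of the Golgi and the recycling pathway. The VPS genes, named after yeast mutants that missort vacuolar proteins, encode retromer and retriever, which return receptors from endosomes, the tethers GARP and EARP at the Golgi and recycling endosomes and HOPS and CORVET at endosomes and lysosomes, the ESCRT complexes that bud vesicles into endosomes, and the VPS13 proteins that pass lipid between membranes. In muscle, RAB-dependent vesicle traffic is known for carrying the glucose transporter GLUT4 to the cell surface in response to insulin and contraction.

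The 41 pigs were purebred uncastrated males of Danbred breeding lines, 13 Duroc and 28 Landrace, raised at a breeding station until slaughter weight. None received a treatment, and muscle was taken directly after slaughter into RNAlater. For each pig the labels gave the RNA integrity number (RIN, a score of how intact the RNA was), the feed conversion ratio (FCR, the efficiency measure of the study, computed from feed intake and weight gain), the age at sampling in days and a batch number from 1 to 5. RIN ran from 7.0 to 8.8 with a median of 8.2 in Duroc and from 6.5 to 8.3 with a median of 8.0 in Landrace. FCR had a median of 1.94 in Duroc and 2.10 in Landrace, and age a median of 148 and 154.5 days. Breed thus came with a difference in FCR and age, and 1 station, 1 sex and 1 muscle limit what the groups stand for.

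Each library held from 22188911 to 25954816 counts on genes. The fibre markers found in the tables summed to 117700 to 211100 CPM in every pig (a count divided by its scaled library size, expressed per a fixed library total), with skeletal actin ACTA1 at medians of 99120 CPM in Duroc and 106700 CPM in Landrace. A pair of libraries stood apart, Duroc pig 10 (RIN 7.0) and Landrace pig 27 (RIN 6.6), with median correlations to the other pigs of 0.935 and 0.936 against 0.958 for the next lowest. Without them 2 of the breed calls and 8 of the RIN calls below were lost, and these are named.

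Most of the machinery was present in this muscle. Of the 110 members, 89 passed the filter on low counts and were tested, namely 40 of 60 RAB, 14 of 15 TRAPPC and all 35 VPS genes. The 21 that failed it were 20 RAB genes and TRAPPC3L, a tissue-restricted relative of the core subunit TRAPPC3. TRAPPC3L had 0 to 1 counts per pig, the epithelial RAB17 0 to 3 and the neuronal and endocrine RAB3C 0 to 4. At the upper end of these, RAB7B, a relative of the lysosomal RAB7A, ran from 1 to 57 counts. RAB14, which works between Golgi and endosomes in most cells, had 1 to 10 counts per pig in the column used, and the stranded columns of the same files held 3.72 times as many read pairs for it.

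Among the tested members, the 5 with the highest mean CPM were RAB7A (chr13:71777422-71886758, Sscrofa11.1), RAB10 (chr3:112842190-112924188), RAB12 (chr6:99216225-99244627), RAB11B (chr2:70884457-70896169) and VPS4A (chr6:17657792-17669560). RAB7A, which directs late endosomes to lysosomes, had a mean of 156 ± 20.2 CPM (SD, n = 41). RAB10, the RAB that delivers GLUT4 vesicles in fat cells, had 151 ± 17.8 CPM. RAB12, a lysosomal and recycling RAB, had 142 ± 31.3 CPM, RAB11B of the recycling endosome 126 ± 31.5 CPM, and VPS4A, the ATPase that takes ESCRT filaments apart, 96.9 ± 13.8 CPM. CPM values carry no gene length, so they served between genes only to choose which to name, and a higher CPM is not read as more transcript. In the other groups of members, the gene with the highest mean CPM was RAB2A for the ER and Golgi (87.4 CPM), VPS35 for retromer (48.1 CPM), RAB3GAP2 for the RAB regulators (33.3 CPM), TRAPPC10 for TRAPPII (32.1 CPM), TRAPPC8 for TRAPPIII (27.7 CPM), VPS52 for GARP and EARP (27.1 CPM), VPS8 for HOPS and CORVET (20.7 CPM), TRAPPC2L for the TRAPP core (19.6 CPM) and VPS13C for the lipid transfer proteins (17.3 CPM). Scaled by library size alone, the members together took 1557 to 2369 CPM in the Duroc pigs (median 2132) and 1497 to 2436 CPM in the Landrace pigs (median 2039), so that the breeds overlapped almost throughout.

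The first comparison asked which members differed between Duroc and Landrace once FCR, RIN, age and batch were in the model. With edgeR's quasi-likelihood test and a false discovery rate (FDR, Benjamini-Hochberg over all 11146 genes tested) under 0.1, 25 of the 89 members passed (28.1%), against 33.1% of all genes tested. Of these, 15 were higher in Landrace (16.9% of members, against 15.6% of all genes) and 10 were higher in Duroc (11.2%, against 17.5%). The median log2 fold change, Landrace over Duroc, was 0.066 over the members and -0.0024 over all genes. The members were therefore called about as often as other genes, and most did not pass. In no member were the CPM ranges of the breeds separate, as they were in 0.0897% of all genes.

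The member with the smallest p was TRAPPC12 (chr3:131307185-131357996), a TRAPPIII subunit. Its CPM ran from 11.5 to 18.6 in Duroc with a median of 15.5, and from 9.00 to 16.6 in Landrace with a median of 12.1. All but 1 of the 13 Duroc pigs lay above the Landrace median, and 11 Landrace pigs lay below every Duroc pig. The fitted log2 fold change was -0.54 (SE 0.0841, edgeR FDR 1.77e-05), and the plain breed difference was negative in each of the 4 batches that held both breeds, from -0.40 to -0.28. The other TRAPPIII subunits TRAPPC8, TRAPPC11 and TRAPPC13 had breed coefficients of 0.05, 0.02 and 0.00 and did not pass.

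RAB12 was the leading member in the other direction. It ran from 74.4 to 159 CPM in Duroc (median 110) and from 109 to 225 CPM in Landrace (median 149). Every Landrace pig but 1 lay above the Duroc median, and 11 lay above the highest Duroc pig. The log2 fold change was 0.68 (SE 0.122, edgeR FDR 0.000117), with within-batch differences from 0.23 to 0.84. It was the only one of 4 tested late endosomal and lysosomal RABs to pass. The others, RAB7A, RAB9A and RAB29, had coefficients of 0.17, 0.15 and 0.15.

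Of the 5 GARP and EARP subunits, VPS53 and VPS50 passed as higher in Duroc. VPS53 (chr12:47141749-47291169), a subunit of both tethers, ran from 7.84 to 12.8 CPM in Duroc (median 10.1) and from 7.31 to 10.9 CPM in Landrace (median 9.17), with a log2 fold change of -0.33 (SE 0.0754, edgeR FDR 0.00176). VPS50 (chr9:73074878-73215833), which is found in EARP but not in GARP, ran from 11.8 to 21.9 CPM in Duroc (median 17.5) and from 8.82 to 19.3 CPM in Landrace (median 14.0), with a log2 fold change of -0.37 (SE 0.0914, edgeR FDR 0.00347). For each of these genes 12 of the 13 Duroc pigs lay above the Landrace median, and each was lower in Landrace in all 4 batches, though the ranges overlapped. The remaining subunits VPS51, VPS52 and VPS54, with coefficients of 0.21, -0.07 and 0.15, did not pass.

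Retriever, which recycles integrins and other receptors, had its specific subunits called on opposite sides, though only the VPS26C call held with library size alone. VPS26C ran from 4.74 to 7.60 CPM in Duroc (median 6.51) and from 3.86 to 7.32 CPM in Landrace (median 5.03). Its log2 fold change was -0.42 (SE 0.104, edgeR FDR 0.00324), and 27 of the 28 Landrace pigs lay below the Duroc median. VPS35L, the scaffold of the same complex, ran from 4.74 to 9.21 CPM in Duroc (median 7.04) and from 6.12 to 11.7 CPM in Landrace (median 9.48). All 13 Duroc pigs lay below the Landrace median and 15 Landrace pigs above the highest Duroc pig, and its log2 fold change was 0.29 (SE 0.116, edgeR FDR 0.0643). Without the pair of libraries that stood apart the FDR of VPS35L was 0.111. Scaled by library size alone its log2 fold change was 0.12 (edgeR FDR 0.581), against -0.60 (edgeR FDR 0.000443) for VPS26C. In retromer, the related complex, VPS35 passed narrowly (log2 fold change 0.18, edgeR FDR 0.0930) while VPS26A, VPS26B and VPS29 did not. With library size alone VPS35 was at 0.0038 and did not pass.

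**Figure D1:**
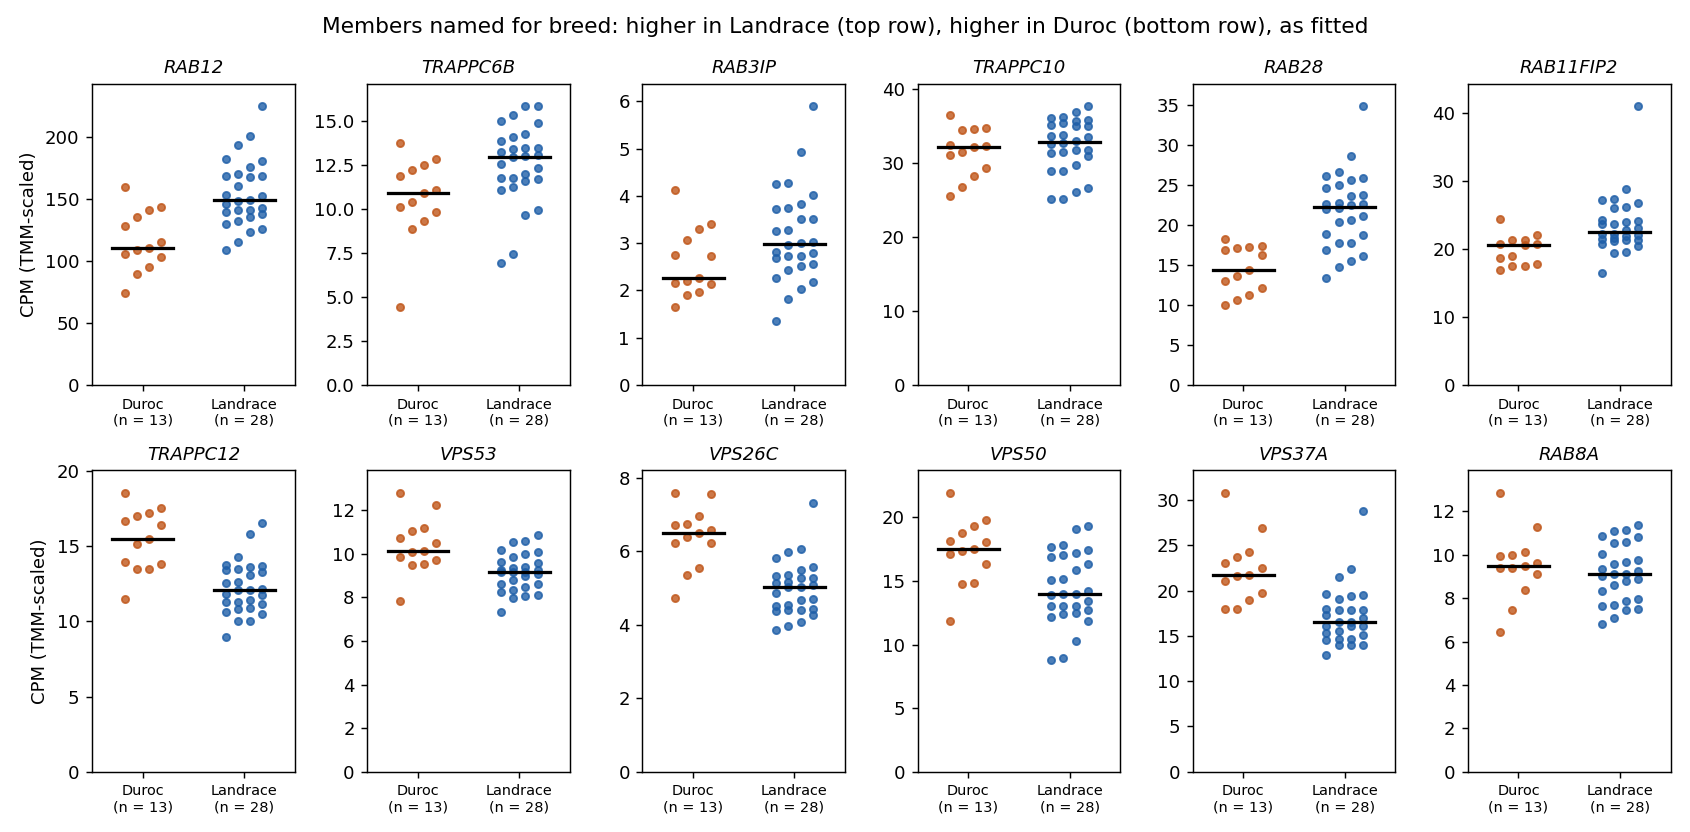
CPM of the 6 members higher in Landrace (top) and the 6 higher in Duroc (bottom) with the smallest breed p, 1 point per pig (13 Duroc in orange, 28 Landrace in blue), with a bar at the breed median and each vertical axis from 0. RAB28 and VPS37A show the widest parting of the breeds, with 21 Landrace pigs beyond all Duroc pigs, while TRAPPC10 and RAB8A overlap almost fully before adjustment for the covariates.

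Among RABs without a firm place in these groups, RAB28 (chr8:8870795-9125253), known for its part in photoreceptor cilia, ran from 9.95 to 18.2 CPM in Duroc (median 14.4) and from 13.4 to 34.8 CPM in Landrace (median 22.3). It had 21 of 28 Landrace pigs above the highest Duroc pig and all 13 Duroc pigs below the Landrace median. The log2 fold change was 0.46 (SE 0.156, edgeR FDR 0.0270), smaller relative to its error than in TRAPPC12 or RAB12.

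Of 8 tested exocytic RABs, RAB26 passed as higher in Landrace and the pair RAB8A and RAB8B, which carry cargo to the plasma membrane, as lower. RAB26, of secretory granules, ran from 0.857 to 7.74 CPM in Duroc (median 2.48) and from 1.5 to 4.83 CPM in Landrace (median 3.02), with 2 batches in each direction. Its fitted log2 fold change of 0.80 (SE 0.3, edgeR FDR 0.0466) was 0.27 without age in the model (FDR 0.536), and the FDR was 0.182 with batch as a number and 0.118 with library size alone. RAB8A (chr2:61430680-61450351) ran from 6.43 to 12.9 CPM in Duroc (median 9.48) and from 6.83 to 11.4 CPM in Landrace (median 9.10), so that the breeds overlapped almost fully. Its fitted log2 fold change was -0.29 (SE 0.0955, edgeR FDR 0.0225), and the FDR was 0.154 without age and 0.108 without RIN in the model. RAB8B had a log2 fold change of -0.46 (edgeR FDR 0.0274), with an FDR of 0.117 without age. RAB3IP (chr5:34002792-34053893), the exchange factor that activates RAB8, went the other way, from 1.64 to 4.12 CPM in Duroc (median 2.26) and from 1.36 to 5.90 CPM in Landrace (median 2.98). Its log2 fold change was 0.67 (SE 0.192, edgeR FDR 0.00961), it rested on 30 to 133 counts per pig, and 23 Landrace pigs lay above the Duroc median.

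RAB11FIP2 (chr14:128068085-128110949), which links RAB11 to the motor myosin V, ran from 16.9 to 24.5 CPM in Duroc (median 20.6) and from 16.5 to 41.1 CPM in Landrace (median 22.6). The log2 fold change was 0.35 (SE 0.117, edgeR FDR 0.0275), and 12 of the 13 Duroc pigs lay below the Landrace median. RAB11A and RAB11B themselves did not pass, at 0.07 and -0.06. Of the 9 tested RABs of early and recycling endosomes only RAB31, a relative of RAB22A, passed, at -0.35 (edgeR FDR 0.0501). In the ER and Golgi group RAB6A at 0.18 and RAB2B at 0.20 passed as higher in Landrace. Scaled by library size alone they were at 0.0034 and 0.0274 and did not pass. RAB34 at -0.68 passed as lower, with an edgeR FDR of 0.0950, or 0.145 without the pair of libraries that stood apart.

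In the TRAPP core, TRAPPC6B (chr1:169710948-169722782) ran from 4.43 to 13.7 CPM in Duroc (median 10.9) and from 6.96 to 15.9 CPM in Landrace (median 13.0). The log2 fold change was 0.47 (SE 0.116, edgeR FDR 0.00306), 24 Landrace pigs lay above the Duroc median, and the FDR without RIN in the model was 0.133. Its paralog TRAPPC6A had a coefficient of -0.20 and did not pass. TRAPPC10 (chr13:206936311-207013112), which defines TRAPPII, ran from 25.5 to 36.5 CPM in Duroc (median 32.2) and from 25.1 to 37.7 CPM in Landrace (median 32.9), nearly the same range. Its fitted log2 fold change was 0.22 (SE 0.0688, edgeR FDR 0.0162), with an FDR of 0.179 when RIN was left out.

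In 2 sets of paralogs, copies passed in opposite directions. In ESCRT-I, VPS37A (chr17:4949632-5014842) ran from 17.9 to 30.8 CPM in Duroc (median 21.7) and from 12.9 to 28.8 CPM in Landrace (median 16.5). All 13 Duroc pigs lay above the Landrace median and 21 Landrace pigs lay below every Duroc pig, and the log2 fold change was -0.34 (SE 0.108, edgeR FDR 0.0208). VPS37B (chr14:29963087-29994650) was fitted as higher in Landrace, at 0.48 (SE 0.178, edgeR FDR 0.0418), although its medians were 16.6 CPM in Duroc and 14.5 CPM in Landrace. It was the only one of the 25 whose plain breed difference had the opposite sign to the fit, and its FDR was 0.380 without age and 0.327 without RIN in the model. VPS37C and VPS37D, at 0.06 and 0.23, did not pass.

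The other set was VPS13. VPS13A, the gene of chorea-acanthocytosis, ran from 3.55 to 16.0 CPM in Duroc (median 12.4) and from 4.72 to 19.3 CPM in Landrace (median 14.2), at a log2 fold change of 0.42 (SE 0.151, edgeR FDR 0.0358). VPS13B, the Cohen syndrome gene, ran from 1.20 to 6.43 CPM in Duroc (median 4.31) and from 0.764 to 6.09 CPM in Landrace (median 3.76), at -0.46 (SE 0.205, edgeR FDR 0.0946). The ranges overlapped in both. The FDR of VPS13A was 0.614 with RIN left out and 0.339 with library size alone, and that of VPS13B 0.374 with age left out. VPS13C and VPS13D had breed coefficients of 0.07 and 0.02.

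Within batches, 13 of the 25 members had the same sign in all 4 batches with both breeds, and batch 1 held a single Duroc pig. Scaling by library size alone, in place of the trimmed mean of M-values (TMM), moved the median breed coefficient of all genes from -0.0024 to -0.18. On that scale 26 members passed, 2 higher and 24 lower in Landrace, as were 4.79% and 32.3% of all genes. Of the 25, 13 no longer passed, and all of them had been called higher in Landrace. They were RAB11FIP2, RAB26, RAB28, RAB2B, RAB6A, TRAPPC10, TRAPPC4, TRAPPC6B, VPS13A, VPS35, VPS35L, VPS37B and VPS8. Of the calls higher in Landrace only RAB12 and RAB3IP were kept, while every call higher in Duroc was kept. Directions of breed differences are thus relative to the bulk of genes. Leaving out the pair of libraries that stood apart, 27 members passed (30.3%, against 33.4% of all genes), 23 of them shared, and VPS35L and RAB34 were lost. With RIN left out 23 members passed (25.8%, against 32.4% of all genes) and 15 of the 25 calls were kept. The lost ones were RAB31, RAB34, RAB8A, TRAPPC10, TRAPPC6B, VPS13A, VPS35, VPS35L, VPS37B and VPS8. With age left out 18 members passed (20.2%, against 27.9% of all genes) and 17 of the 25 calls were kept. RAB26, RAB34, RAB8A, RAB8B, TRAPPC4, VPS13B, VPS35 and VPS37B were lost.

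Markers of other cell types also differed by breed. All 4 endothelial markers tested were lower in Landrace, with sums of 53.6 to 160 CPM in Duroc and 29.0 to 136 CPM in Landrace. All 4 smooth muscle and pericyte markers were lower as well (99.7 to 359 CPM and 70.4 to 334 CPM), and 4 of 5 fibre markers were higher. Of the remaining lists, 1 of 5 slow fibre, 1 of 3 adipocyte, 1 of 6 leukocyte, 1 of 5 fibroblast and 0 of 2 erythrocyte markers passed, all of them lower in Landrace. No tested marker was at 0 in any pig, while the adipocyte genes LEP and PLIN1, too low to test, were at 0 in 29 and 4 pigs. Their part in the breed differences of the members was not tested, and in bulk muscle fewer cells of a type cannot be told apart from less RNA per cell.

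Partners of the members were taken from lists of known pathway genes, and on the TMM scale 22 of 91 tested were higher and 6 lower in Landrace, where 15.6% and 17.5% of all genes were. Of 17 genes of the RAB cycle 4 were higher and 1 lower, and of 15 RAB effectors 4 and 3. Of 15 ESCRT partners 3 were higher and 1 lower, and of 8 genes of phosphoinositide kinases and their partners 1 and 0. Among the effectors, APPL2, which binds RAB5, had a log2 fold change of 0.52 (edgeR FDR 0.000978), and SYTL2, a RAB27 effector, one of -1.85 (edgeR FDR 1.49e-06) with medians of 14.0 CPM in Duroc and 4.08 CPM in Landrace. Of the sorting nexin, WASH and COMMD genes 4 of 12 were higher and none lower, among them SNX6, a partner of retromer, at 0.38 (edgeR FDR 0.00321). Of the SNAREs 5 of 15 were higher and none lower. Of 9 GLUT4 vesicle genes 1 was higher, SNAP23 at 0.31 (edgeR FDR 0.00852), and 1 lower, SLC2A4, which encodes GLUT4 itself, at -0.60 (edgeR FDR 0.000240). The others did not pass.

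The second comparison asked which members varied with RNA integrity. At FDR under 0.1, 49 of the 89 members passed (55.1%), against 51.8% of all genes. With rising RIN, 25 rose (28.1%, against 23.9% of all genes) and 24 fell (27%, against 27.9%). The median log2 fold change per unit of RIN was -0.02 over the members and -0.01 over all genes. The plot of coefficients by role shows them by complex.

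**Figure D2:**
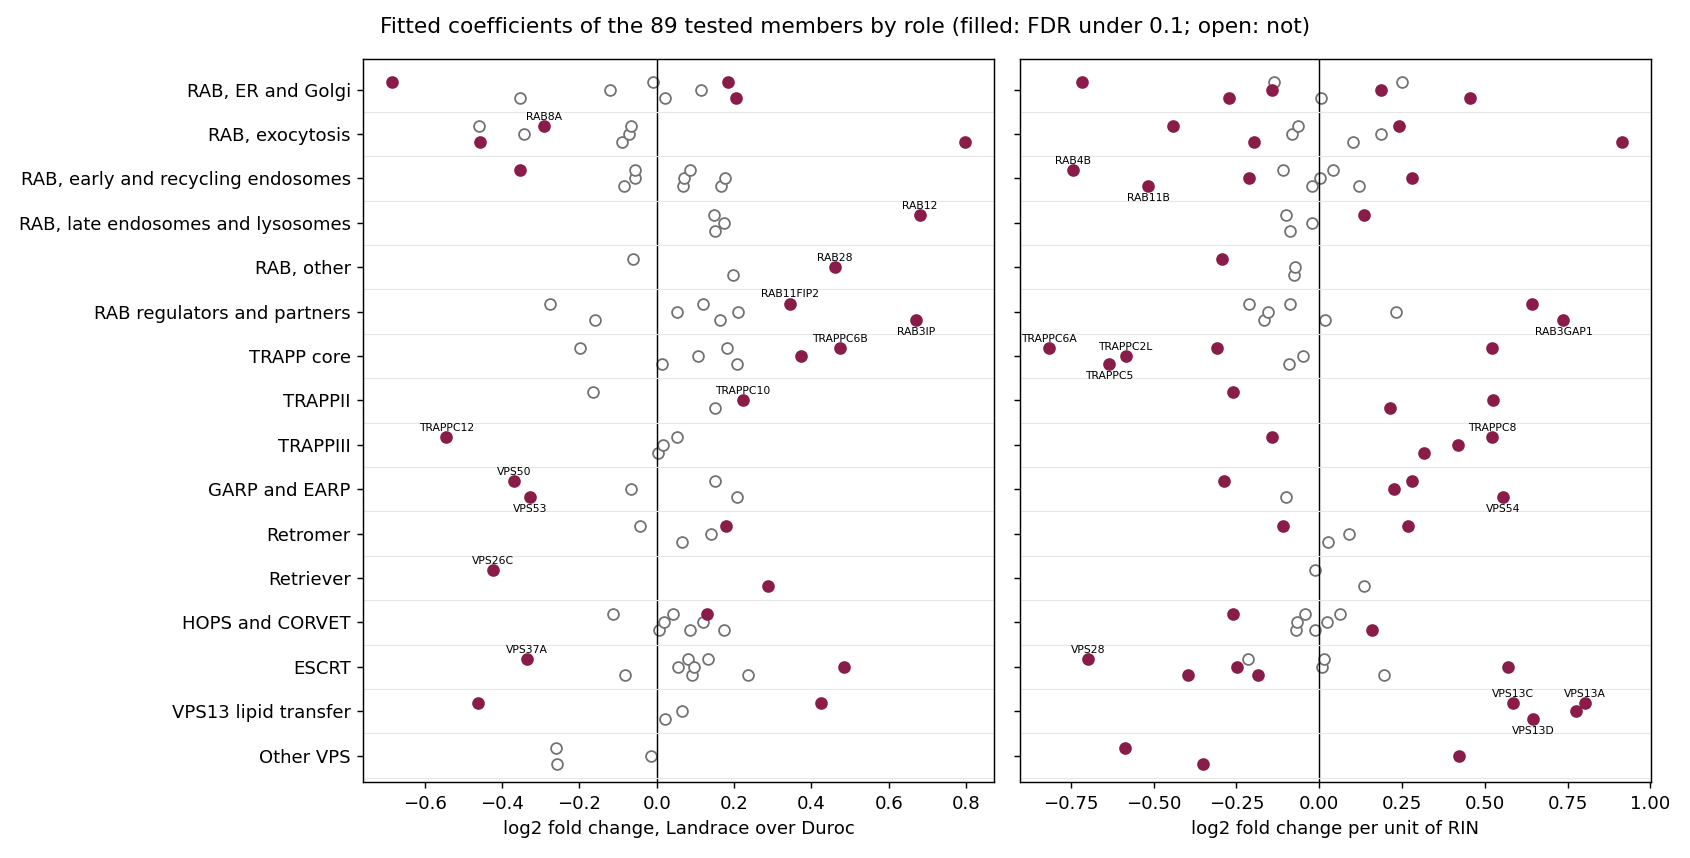
Fitted log2 fold changes of the 89 tested members, Landrace over Duroc (left) and per unit of RIN (right), 1 point per gene in 16 role groups, filled where the FDR was under 0.1 and labelled for the members with the smallest p. All 4 VPS13 genes lie at 0.58 or more on the RIN axis, 4 of 7 TRAPP core subunits fell (TRAPPC2 not with library size alone) and 3 of 4 TRAPPIII subunits rose, whereas no group has more than 3 breed calls.

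Of 7 tested TRAPP core subunits 4 fell (TRAPPC2, TRAPPC2L, TRAPPC5 and TRAPPC6A) and TRAPPC6B rose, though TRAPPC2 had a coefficient above 0 with library size alone. Of the 4 subunits particular to TRAPPIII, TRAPPC8, TRAPPC11 and TRAPPC13 rose and TRAPPC12 fell, the last at -0.14 with an edgeR FDR of 0.0759, or 0.128 without the pair of libraries that stood apart. Of TRAPPII, TRAPPC9 and TRAPPC10 rose and TRAPPC14 fell, by 0.26 in the column used and by 0.63 in the stranded sum. With library size alone TRAPPC14 had a coefficient above 0, and TRAPPC12 passed as rising (0.16, FDR 0.0797).

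For the levels behind these slopes, the 6 pigs with a RIN of at most 7.5 are set beside the 12 with a RIN of at least 8.3. These groups differ in batch and breed as well as in RIN, since 5 of the 6 low-RIN pigs and none of the 12 high-RIN pigs were of batch 5, and 5 of the 6 but 6 of the 12 were Landrace. Their CPM ranges are not adjusted for that, whereas the slopes come from the fit with batch and breed. How many of all genes had separate ranges between these groups was not counted. A lack of overlap is therefore not read as particular to the members. Within batch 5 alone the plain slopes of the 12 members in the plot of CPM against RIN had the same sign as the fit, as they did within batches 2 and 3. TRAPPC5 (chr2:71470441-71472614) ran from 19.0 to 37.7 CPM in the low-RIN pigs (median 26.0) and from 11.4 to 19.3 CPM in the high-RIN pigs (median 14.5), overlapping only at the edge. It fell by 0.63 on the log2 scale per unit of RIN (SE 0.0813, edgeR FDR 1.76e-07). TRAPPC2L (chr6:865498-869253) ran from 23.4 to 41.1 CPM against 13.2 to 19.6 CPM, without overlap, and fell by 0.58 (SE 0.0725, edgeR FDR 1.11e-07).

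TRAPPC6A (chr6:51578906-51589496) was a low gene, with 13 to 54 counts per pig, and ran from 1.60 to 3.42 CPM in the low-RIN and from 0.464 to 1.52 CPM in the high-RIN pigs, again without overlap. It fell by 0.82 (SE 0.133, edgeR FDR 7.08e-06). Its paralog TRAPPC6B rose by 0.52 (SE 0.0936, edgeR FDR 2.78e-05). TRAPPC8 (chr6:115692509-115786668), of TRAPPIII, ran from 14.0 to 27.3 CPM (median 18.5) in the low-RIN and from 25.6 to 33.9 CPM (median 30.3) in the high-RIN pigs, with a slight overlap. It rose by 0.52 (SE 0.0681, edgeR FDR 2.28e-07).

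All 4 VPS13 genes, which encode very long rod-shaped proteins, rose with RIN. VPS13A (chr1:230069339-230331343) ran from 3.55 to 13.8 CPM in the low-RIN pigs (median 8.06) and from 9.07 to 19.3 CPM in the high-RIN pigs (median 14.2), and rose by 0.80 (SE 0.128, edgeR FDR 4.94e-06). VPS13D (chr6:72256865-72514256), needed for mitochondrial shape and clearance, ran from 5.07 to 9.31 CPM and from 10.2 to 18.1 CPM, without overlap, and rose by 0.65 (SE 0.0996, edgeR FDR 3.16e-06). VPS13C (chr1:109931269-110105519) ran from 7.85 to 18.4 CPM and from 14.5 to 25.2 CPM and rose by 0.58 (SE 0.104, edgeR FDR 2.26e-05). VPS13B (chr4:37085929-37821159) rose by 0.78 (SE 0.175, edgeR FDR 0.000461).

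Of the 9 ESCRT genes VPS28, VPS25, VPS37C and VPS4A fell, VPS37B rose and 4 did not pass, and with library size alone VPS37C and VPS4A had coefficients above 0. VPS28 (chr4:362902-368038), an ESCRT-I subunit, ran from 65.4 to 120 CPM in the low-RIN pigs (median 81.4) and from 29.2 to 51.0 CPM in the high-RIN pigs (median 41.9), without overlap. It fell by 0.70 (SE 0.0833, edgeR FDR 6.33e-08). VPS4A ran from 111 to 132 CPM and from 78.7 to 106 CPM, also apart, and fell by 0.25 (SE 0.0493, edgeR FDR 9.99e-05).

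In GARP and EARP, VPS50, VPS51 and VPS54 rose and VPS52 fell, but VPS51 went from 0.23 to 0.0675 (FDR 0.605) without the pair of libraries that stood apart. VPS54 (chr3:77856093-77978194), the subunit that marks GARP, ran from 4.03 to 8.39 CPM in the low-RIN pigs (median 5.60) and from 8.39 to 12.5 CPM in the high-RIN pigs (median 10.0), adjacent but without overlap. It rose by 0.56 (SE 0.0876, edgeR FDR 4.28e-06). VPS52 fell by 0.29 (SE 0.0622, edgeR FDR 0.000279), or by 0.17 without that pair. Of the 8 genes grouped here under HOPS and CORVET, VPS8 rose, VPS16 fell and 6 did not pass. Scaled by library size alone, VPS52 and VPS16 had coefficients of 0.0271 and 0.0471.

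Among the RAB GTPases, 6 rose and 9 fell of 32 tested. RAB4B (chr6:48989080-49010042), of the fast recycling route, had the smallest p of all members for RIN. It ran from 23.2 to 56.2 CPM in the low-RIN pigs (median 29.1) and from 12.1 to 17.2 CPM in the high-RIN pigs (median 15.0), with no overlap, and fell by 0.74 (SE 0.0812, edgeR FDR 1.84e-08). RAB11B ran from 127 to 226 CPM and from 84.1 to 129 CPM and fell by 0.52 (SE 0.0789, edgeR FDR 2.75e-06). The paralogs RAB4A and RAB11A, at 0.12 and 0.04, did not pass. RAB3D, an exocytic RAB of secretory cells with about 1 CPM here, had the steepest rise, 0.91 (SE 0.206, edgeR FDR 0.000457).

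Both subunits of the RAB3GAP complex, which activates RAB18 and turns off RAB3, rose. RAB3GAP1 (chr15:16756368-16893148) ran from 3.75 to 14.9 CPM in the low-RIN pigs (median 10.8) and from 17.8 to 23.4 CPM in the high-RIN pigs (median 20.0), without overlap, and rose by 0.74 (SE 0.121, edgeR FDR 7.27e-06). RAB3GAP2 (chr10:9734766-9828330) rose by 0.64 (SE 0.143, edgeR FDR 0.000386). Without the pair of libraries that stood apart the slopes were 0.46 for RAB3GAP1 and 0.35 for RAB3GAP2, both still passing, and in the stranded sum that of RAB3GAP2 was 0.15. The other 6 tested regulators and partners of RABs did not pass.

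**Figure D3:**
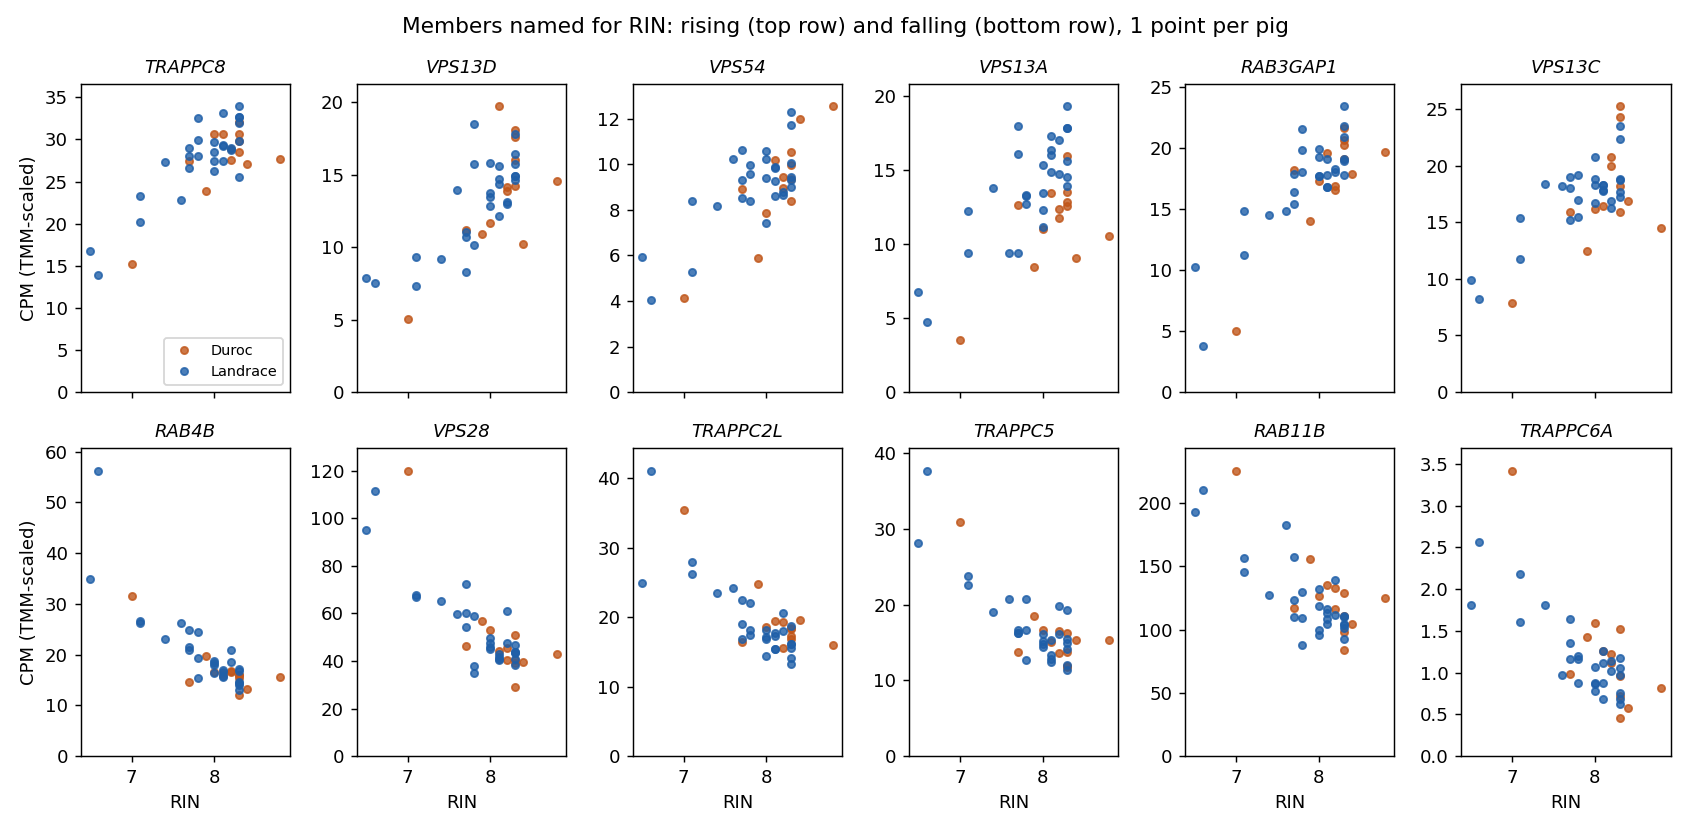
CPM against RIN for the 6 members rising and the 6 falling with RIN that had the smallest p, 1 point per pig (Duroc orange, Landrace blue), each vertical axis from 0. The 6 pigs with a RIN of at most 7.5 carry much of the range: RAB4B is at 23.2 CPM or more in all of them and at 17.2 CPM or less in the 12 pigs with a RIN of at least 8.3.

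In Landrace pigs alone 43 members passed, all of them among the 49 and with the same sign (48.3%, against 42.9% of all genes in that fit). Within batches 2, 3 and 5, 43 of the 49 had the same sign throughout, the exceptions being RAB1A, RAB29, RAB31, TRAPPC12, TRAPPC2 and VPS51. Without the 2 pigs with a RIN below 7, 39 passed, 36 of them shared with the 49 (43.8%, against 35.6% of all genes). Without the pair of libraries that stood apart 43 passed, 41 shared (48.3%, against 36.6% of all genes). The 8 lost with that pair were RAB10, RAB40C, RAB8A, VPS51, TRAPPC12, RAB29, RAB31 and RAB2B. Without it VPS25 was at -0.21, VPS72 at -0.30, TRAPPC13 at 0.26, VPS37B at 0.37, TRAPPC9 at 0.27 and RAB30 at -0.44, each smaller by a factor over 1.5 and still passing. With library size alone the median RIN coefficient of all genes moved from -0.010 to 0.30, and 60 members then rose and 8 fell, as did 55.8% and 7.91% of all genes. Of the 24 falling genes, 13 then had a coefficient above 0, among them VPS4A and VPS52, while RAB4B, VPS28, TRAPPC2L, TRAPPC5, RAB11B and TRAPPC6A still fell.

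Genomic span, the distance from gene start to gene end with introns, was set beside the slopes. Of the tested members, 85 had a genomic span in the RefSeq annotation of Sscrofa11.1. Of 25 spanning under 15 kb, 4 rose and 12 fell, with a median coefficient of -0.21. Of all 2668 genes in that class 266 rose and 1247 fell. Of 29 members spanning 15 to 50 kb, 6 rose and 7 fell, as did 788 and 767 of all 3283 genes there. Of 31 members spanning 50 kb or more, 15 rose and 4 fell, with a median of 0.16. Of all 3324 genes in the last class 1236 rose and 440 fell. Over all 9275 genes with a span the medians in these classes were -0.21, 0.0098 and 0.15. Spearman's rho between span and coefficient was 0.488 over the members and 0.39 over all genes, as a description across genes that share the same libraries. The part of length in the RIN slopes was not tested.

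**Figure D4:**
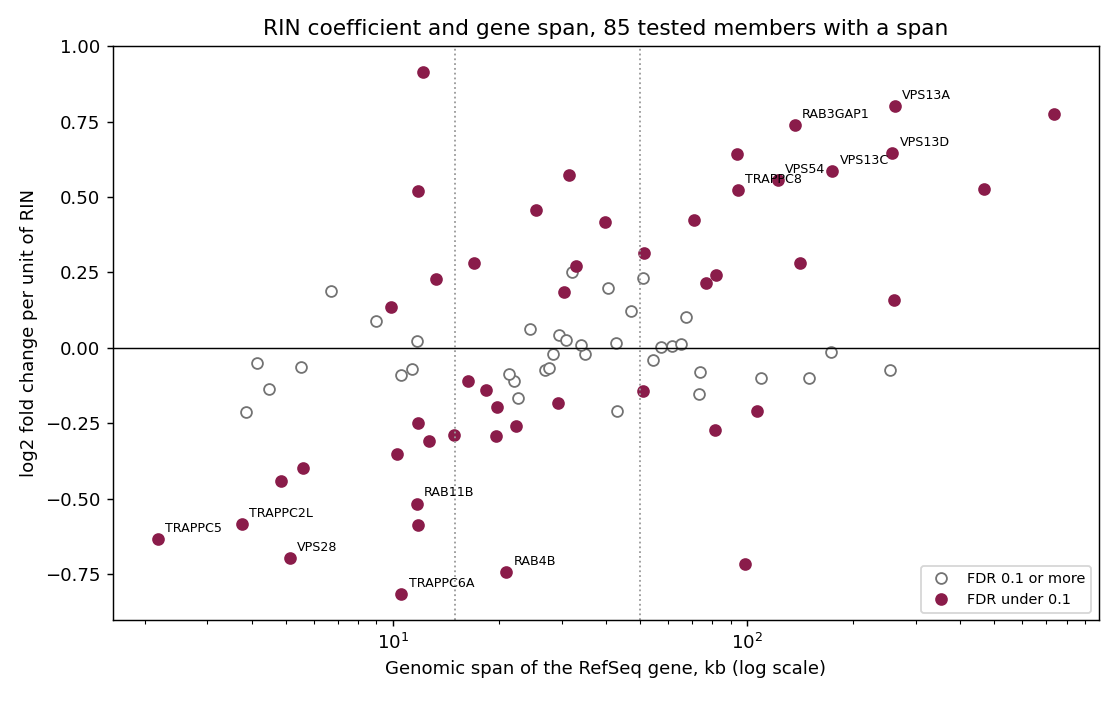
Log2 fold change per unit of RIN against the genomic span in kb (log axis) for the 85 tested members with a span, filled where the FDR was under 0.1, with dotted lines at 15 and 50 kb. TRAPPC5, TRAPPC2L and VPS28 lie low on the left and the VPS13 genes high on the right, with RAB3D (short, 0.91) and RAB30 (long, -0.72) against the trend.

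Other genes of the pathway and markers also varied with RIN. Of the 91 partners tested, 32 rose and 26 fell, where 23.9% and 27.9% of all genes did. All 5 slow fibre markers tested fell, with sums of 4205 to 13960 CPM in Duroc and 1353 to 16740 CPM in Landrace, as did both erythrocyte markers. Of 5 fibroblast markers PDGFRA (1.62 per unit of RIN) and COL3A1 (0.93) rose, with list sums of 556.5 to 4206 CPM in Duroc and 549.4 to 12350 CPM in Landrace. Of 5 fibre markers NEB rose and DES and TNNT3 fell, and of 6 leukocyte markers CD3E fell. No adipocyte, endothelial or smooth muscle marker passed. The part of these cell types in the slopes of the members was not tested.

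Calls for both breed and RIN were made for 12 members (13.5%, against 16.7% of all genes), and 27 had neither (30.3%, against 31.7%). VPS13A, VPS37B, TRAPPC6B, TRAPPC10, VPS35 and VPS8 were higher in Landrace and rose with RIN. With library size alone all of them still rose with RIN, but none kept its breed call. The breed coefficients of VPS35 and VPS8 were then 0.0038 and -0.0455. TRAPPC12, RAB8A and RAB31 were lower in Landrace and fell with RIN (not so with library size alone), VPS50 and VPS13B were lower in Landrace and rose, and RAB2B was higher and fell, the fall being lost without the pair of libraries (FDR 0.363) and turned with library size alone (0.17). Both coefficients come from 1 fit of the same pigs.

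With age, no member passed in edgeR, where 1.76% of all genes did, or in limma with voom. At an unadjusted p under 0.05 there were 8 members (8.99%, against 16% of all genes). DESeq2 called 4 of 88 members, all falling with age, against 5.16% of all genes with an adjusted p. RAB26 fell by 0.08 on the log2 scale per day (DESeq2 FDR 0.0385, edgeR FDR 0.113). VPS26A of retromer fell by 0.02 (DESeq2 FDR 0.0702), RAB12 by 0.03 (DESeq2 FDR 0.0775) and VPS37B by 0.04 (DESeq2 FDR 0.0997), and in edgeR their FDR values were 0.134, 0.128 and 0.163. RAB26, RAB12 and VPS37B were also called higher in Landrace, the older group, and without age in the model the breed calls of RAB26 and VPS37B were lost.

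With FCR, the trait at the centre of the study, no member passed in edgeR, in limma with voom or in DESeq2, and edgeR called 0% of all genes. The paper's own joint DESeq2 fit called MTFR1, MGAT4A, SLC38A2 and MRPS11 for FCR, none of them a member. At an unadjusted p under 0.05 there were 8 members (8.99%, against 8.68% of all genes). The smallest p values belonged to TRAPPC6A, at -1.92 on the log2 scale per unit of FCR (SE 0.683, edgeR FDR 0.529), VPS28, at -1.22 (SE 0.443, edgeR FDR 0.529), and VPS4B, the second ESCRT ATPase, at 1.72 (SE 0.692, edgeR FDR 0.535). A unit of FCR is wider than the range of these pigs, which was 1.83 to 2.25. Both TRAPPC6A and VPS28 also fell with RIN.

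Whether the FCR slope differed between the breeds was asked with a product of FCR and breed. No member passed, edgeR called 0% of all genes, and at an unadjusted p under 0.05 there were 2 members (2.25%, against 5.22%). RAB12 had the smallest p, with a Landrace slope higher by 2.25 than the Duroc slope (SE 0.851, edgeR FDR 0.922). VPS72, which shares the VPS name but is a subunit of chromatin-remodelling complexes, had 2.87 (SE 1.30, edgeR FDR 0.922) and VPS52 1.20 (SE 0.608, edgeR FDR 0.922). 

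A last point concerns the counting. The libraries were unstranded, and the column used leaves out read pairs that fall where genes on opposite strands overlap, whereas the stranded columns assign them. For 93 of the 110 members the sum of the stranded columns was less than 1.1 times the unstranded count. For 8 it was at least 2 times as large, led by TRAPPC4 (17.0 times), TRAPPC14 (11.5 times) and VPS29 (10.1 times), then RAB3A, RAB14, VPS26B, RAB5IF and RAB3GAP2. Levels in the column used come from pairs outside the overlap, while the stranded sum also takes pairs of the opposite neighbour.

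The choice changed calls for 5 of the 7 that were tested, TRAPPC14 and VPS26B being the others. The RIN slope of VPS26B went from -0.11 to -0.17. Over all members the stranded sum kept 22 of the 25 breed calls and 43 of the 49 RIN calls, and beside TRAPPC4 it lost RAB2B and VPS13B for breed and RAB2B, RAB31, RAB8A, TRAPPC12, VPS37B and VPS37C for RIN. TRAPPC4, a core TRAPP subunit that was higher in Landrace at 0.37 (edgeR FDR 0.0798), had 0.37 with an FDR of 0.105 in the stranded sum, and its RIN coefficient went from -0.05 (FDR 0.773) to -0.58 (FDR 0.000139). VPS29, shared by retromer and retriever, had a breed coefficient of 0.07 (FDR 0.729) in the column used and 0.27 (FDR 0.00994) in the stranded sum. RAB3A, a synaptic vesicle RAB, had a RIN coefficient of 0.19 (FDR 0.161) in the column used and -0.24 (FDR 0.00648) in the stranded sum. The breed coefficients of RAB5IF and RAB3GAP2 passed in the stranded sum only, at 0.24 (FDR 0.0685) and 0.18 (FDR 0.0940), and RAB5IF then also fell with RIN, at -0.18 (FDR 0.0391). Within the overlaps, read pairs of these genes and of their neighbours cannot be told apart here.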

How the data were processed

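Poly(A) RNA from psoas major of 41 pigs, each a separate animal, was sequenced as unstranded 100-base read pairs. According to the methods of the study, the authors trimmed reads with Trimmomatic 0.39 and aligned them with STAR 2.7.1a to Sscrofa11.1 with Ensembl 96, counting pairs per gene. The deposited values are whole counts per gene without normalization, and the unstranded column was used; the 2 stranded columns served as an alternative. Breed, RIN, FCR, age and batch came from the labels. No library was held more than once (lowest chi-squared per degree of freedom 18.2 over 820 pairs).

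Counts were filtered with filterByExpr (11146 genes kept), scaled by TMM (factors 0.650 to 1.24) and entered in a joint model holding breed, FCR, RIN, age and the 5 batches. Each term was tested by quasi-likelihood (edgeR 4.0.16, R 4.3.3), two-sided, with an FDR threshold of 0.1. CPM values are TMM-scaled. Within-batch values used log2(CPM + 0.5). Alternatives were DESeq2 1.42.0, limma 3.58.1 with voom, other scalings and filters, covariates or pigs left out, and, chosen after seeing the data, the stranded sum and leaving out the pair of libraries least like the rest. The fits were also run on simulated counts, and the outcome is not given here. With 22188911 to 25954816 counts per pig, members at about 1 CPM rest on few counts, and fits estimate counting error together with variation between pigs.

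Members and gene lists were chosen with earlier results of these data known. Named are members that passed for age, of which there were none, the 6 members with the smallest p in each direction for breed and RIN, the 3 with the smallest p for FCR and its product with breed, the 5 with the highest mean CPM, the highest of each role, and paralog sets with calls in both directions. Others named in the text were chosen after their values were seen. Symbols came from an Ensembl name table (14857 gene identifiers matched) and coordinates and spans, matched by symbol for 106 of the 110 members, from the RefSeq annotation of Sscrofa11.1. DESeq2 used genes with at least 5 counts in every pig. No transcript lengths were used here, so CPM served between genes only to choose those named. Plots were drawn with matplotlib 3.10.9 in Python 3.11.15.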

Additional observations from a re-analysis of the deposited data

How the results depend on the processing

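The number of members called for breed stayed within 18 to 28 over all alternatives tried (25 as reported), and that for RIN within 39 to 68 (49 as reported). Over all genes the share called ran from 19.7% to 37.1% for breed and from 30.9% to 63.8% for RIN. The 68 came with library size alone, where 63.8% of all genes passed for RIN. Breed calls there were 2 higher and 24 lower in Landrace. For FCR and its product with breed the number of members called was 0 under every alternative. For age, 0 as reported, it was 4 with DESeq2 (5.16% of all genes), 3 with batch as a number (7.3%), 3 with FCR left out (6.15%), 1 without the pigs with a RIN below 7 (2.12%), 2 without the pair of libraries least like the rest (2.04%) and 1 with the stranded sum (1.86%), and 0 otherwise; the cause was not tested.

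Single calls moved more than the totals. Of 350 breed values, 292 kept their side of the threshold, 57 lost it and 1 turned. Of 684 RIN values, 610 kept it, 60 lost it and 14 turned. All but 1 of the turned values came with library size alone, which raised the median RIN coefficient of all genes to 0.30. On that scale the RIN coefficient was 0.0432 for RAB2A, 0.17 for RAB2B, 0.0913 for RAB31, 0.0193 for RAB40C, 0.12 for RAB8A, 0.16 for TRAPPC12, 0.0484 for TRAPPC14, 0.0034 for TRAPPC2, 0.0471 for VPS16, 0.20 for VPS26B, 0.12 for VPS37C, 0.0613 for VPS4A and 0.0271 for VPS52, and the breed coefficient of VPS8 was -0.0455. With the stranded sum the RIN coefficient of RAB2B was 0.0047.

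No paired analysis was possible because the labels give the pigs no number that links a Duroc to a Landrace pig. Depth limits members at about 1 CPM, such as RAB30 and TRAPPC6A, and batch 1 held 1 pig.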
